A study of Mus musculus with 5 samples.

Results

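The genes described here encode Polycomb proteins, enzymes that write or remove DNA and histone methylation, histone deacetylases, subunits of the SWI/SNF remodeling complex, 2 HMGA proteins and telomerase. They were taken by symbol from a fixed list of 47 names. All 47 were found among the 16992 gene symbols that the tables of the series share. Mll1 and Mll2 are older symbols. Mll1 is Kmt2a in RefSeq, while Mll2 is a synonym there of both Kmt2b and Kmt2d. The tables list Kmt2b in a row of its own under another of its older symbols (Wbp7), so the Mll2 row is read as Kmt2d.

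RNA was sequenced from cells freshly sorted out of the pancreas of C57BL/6 mice 2 to 4 months of age, with no treatment or genetic change named for either group. The sort used CD133, a membrane glycoprotein (gene Prom1), and CD71, the transferrin receptor (gene Tfrc). The CD133(positive)CD71(negative) fraction has 2 libraries, called CD71(negative) below, and the CD133(high)CD71(low) fraction has 3, called CD133(high). A second label field gives the latter as positive for both proteins. The title of the series names the CD133(high) fraction as the one enriched for colony-forming progenitors. The third CD133(high) library has an unnumbered title and is library 3 in what follows. The labels do not say whether the libraries of one group came from different mice, whether animals were pooled, or whether the sorts were separate, so a p-value here reflects no more than library-to-library spread, which may be technical.

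Polycomb repressive complex 1 (PRC1) attaches ubiquitin to histones and compacts chromatin, and PRC2 adds the repressive methyl mark that many PRC1 complexes read. DNA methyltransferases place methyl groups on cytosine in CpG dinucleotides and TET enzymes oxidise them. The MLL and SETD7 enzymes methylate histone H3 at sites tied to active genes, deacetylases remove acetyl groups from histones and other proteins, and SWI/SNF moves nucleosomes with energy from ATP. In the pancreas, Polycomb and SWI/SNF genes are known for their roles in keeping acinar, duct and islet cell identity and in the growth of progenitors.

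Values are RPKM (reads scaled by transcript length and by the size of the library, a unit inferred from the values), so levels of different genes can be set side by side per length. Depth inferred from the values ran from 19.85 to 41.75 M reads per library (M, 1e6). The table of library 3 lists a different set of gene symbols, and the library stood apart, with a Pearson r across genes of 0.958 and 0.962 against the other CD133(high) libraries, which correlated at 0.996 with each other. The sort marker genes measured 45.8 and 48.8 RPKM against 72.8, 74.7 and 133.3 for Prom1, and 4.00 and 4.36 against 5.34, 6.84 and 12.2 for Tfrc. Neither gene had a limma adjusted p under 0.05 (0.0909 for Prom1 and 0.151 for Tfrc). Marker lists of other cell types moved between the groups. A list of 22 leukocyte genes summed to 1901 and 1870 RPKM in CD71(negative) cells and to 95.1, 81.95 and 51.0 in the CD133(high) libraries, and 19 of its 20 tested members were lower in limma. All 17 endothelial markers were lower (sums of 987 and 924 against 270.6, 167.9 and 92.4), as were 8 of 12 tested mesenchymal markers (408.9 and 391.8 against 182, 165 and 174) and 3 of 4 tested Schwann cell markers. Duct markers summed to 3658.5 and 3903 against 5311, 5319 and 7508, and 13 of 18 were higher. Acinar markers, of which 0 of 18 passed, summed to 295020 and 263300 against 244350, 247160 and 115760. Of the endocrine markers 5 of 11 tested were lower, while their sums overlapped, at 1875 and 1701 against 1596, 1857 and 600. Of the erythroid ones 3 of 4 tested were higher, with sums of 11.9 and 12.1 against 122.8, 118.3 and 32.5. Proliferation genes summed to 60.5 and 64.5 against 78.4, 80.1 and 93.6, with 4 of 15 tested members higher. Not one marker of any list was at 0 in a library. The part these shifts have in the differences below was not tested, and in bulk RNA fewer cells of a type cannot be told apart from less of an RNA per cell.

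As a class these genes differed between the populations by as much as the typical gene did. Their median difference, CD133(high) minus CD71(negative) on the log2(RPKM + 1) scale, was 0.32, against 0.31 for all 11769 genes tested. This scale understates changes of genes with low values. Taken library by library against the mean of the CD71(negative) libraries, the median of the list lay at -0.00, -0.01 and 0.04 from the all-gene median in CD133(high) libraries 1, 2 and 3. Of the 47 genes 45 passed the filter of a mean of at least 1 RPKM, and Dnmt3b and Hmga2 did not. At a Benjamini-Hochberg adjusted p under 0.05 in limma, 4 of the 45 were higher in CD133(high) cells and 0 were lower. The same test called 6.25% of all genes higher and 7.22% lower, so the share of higher members was close to the background. The 4 include Tert, which passed the filter on the mean only through the CD133(high) libraries. With a minimum mean of 5 RPKM, 3 of 31 tested members were higher and 0 lower, beside 505 and 315 of 7839 genes. At an unadjusted p under 0.05, 12 of the 45 were higher, against 27.5% of all genes, and 0 lower, against 9.18%. In 30 of the 45 every CD133(high) library lay above both others, against 58.2% of all genes, and in 0 of the 45 every one lay below, against 12.0%.

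The called genes were Cbx6, Hdac11, Phc1 and Tert, and only Cbx6 was also called when the libraries were rescaled by median of ratios. That scaling brought the all-gene median difference from 0.31 to 0.02 and the median of the members to 0.03, with 1 member higher and 0 lower, beside 1.87% and 9.4% of all genes. Quantile normalization gave 5 higher (Cbx6, Phc1, Tert, Pcgf2 and Uhrf1) and 0 lower, beside 7.11% and 8.82% of all genes. When each of the other libraries was left out in turn, 0 members were called, and the same fits called few genes of any kind higher (0.0% and 0.00855% of all genes without CD71(negative) libraries 1 and 2, and 0.753% and 0.338% without CD133(high) libraries 1 and 2). Over the 5 fits that each leave out 1 library, the log2 differences of the called genes kept to 0.70 to 0.83 (Cbx6), 0.52 to 0.63 (Phc1), 0.56 to 0.70 (Hdac11) and 0.53 to 0.59 (Tert). Without library 3, 16 of 44 tested members were higher and 0 lower, beside 40.9% and 12.2% of all genes. With both changes, 7 of 44 were higher (Cbx6, Hdac11, Phc1, Tert, Pcgf2, Cbx7 and Arid1b) and 2 lower (Tet3 and Mll2), beside 12.3% and 17.9% of all genes.

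**Figure D1:**
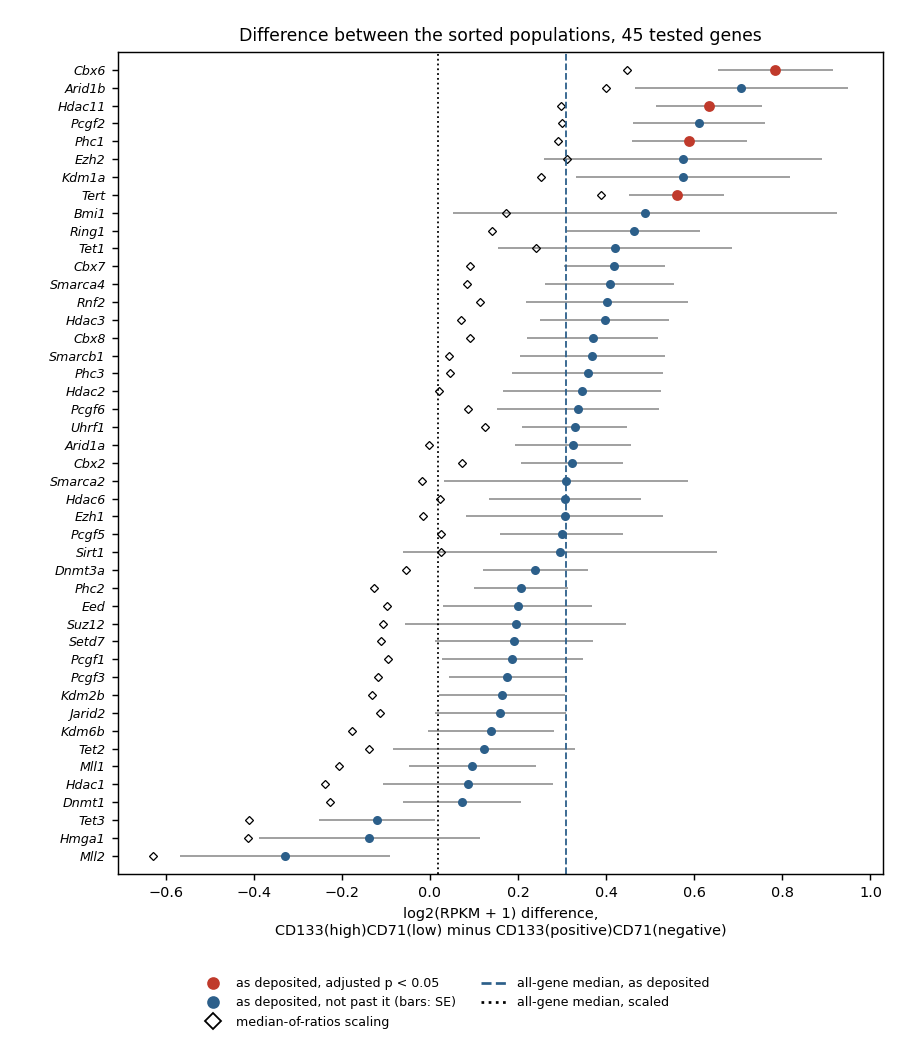
Difference between the sorted populations for the 45 tested genes, in log2(RPKM + 1), with filled points as deposited (bars: SE, red where the limma adjusted p was under 0.05) and open diamonds after median-of-ratios scaling. The dashed and dotted lines are the all-gene medians of 0.31 and 0.02, and the genes spread to both sides of them, from Mll2 at -0.33 to Cbx6 at 0.78 as deposited.

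Levels of the 47 genes spanned a wide range that was much the same in both populations. Cbx6 was the most abundant with a mean of 57.2 RPKM over the 5 libraries, above 96.5% of the genes in the tables. Hdac11 (47.8), Phc2 (33.3), Cbx7 (22.4) and Smarca2 (22.1) came next. At the other end Hmga2, Dnmt3b, Tert and Tet1 lay below 1 RPKM in 2 or more libraries. The median member measured 5.67 and 6.87 RPKM in CD71(negative) cells against 6.70, 7.15 and 7.45 in the CD133(high) libraries. All-gene medians were 3.59 and 3.85 against 3.84, 3.78 and 4.92.

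**Figure D2:**
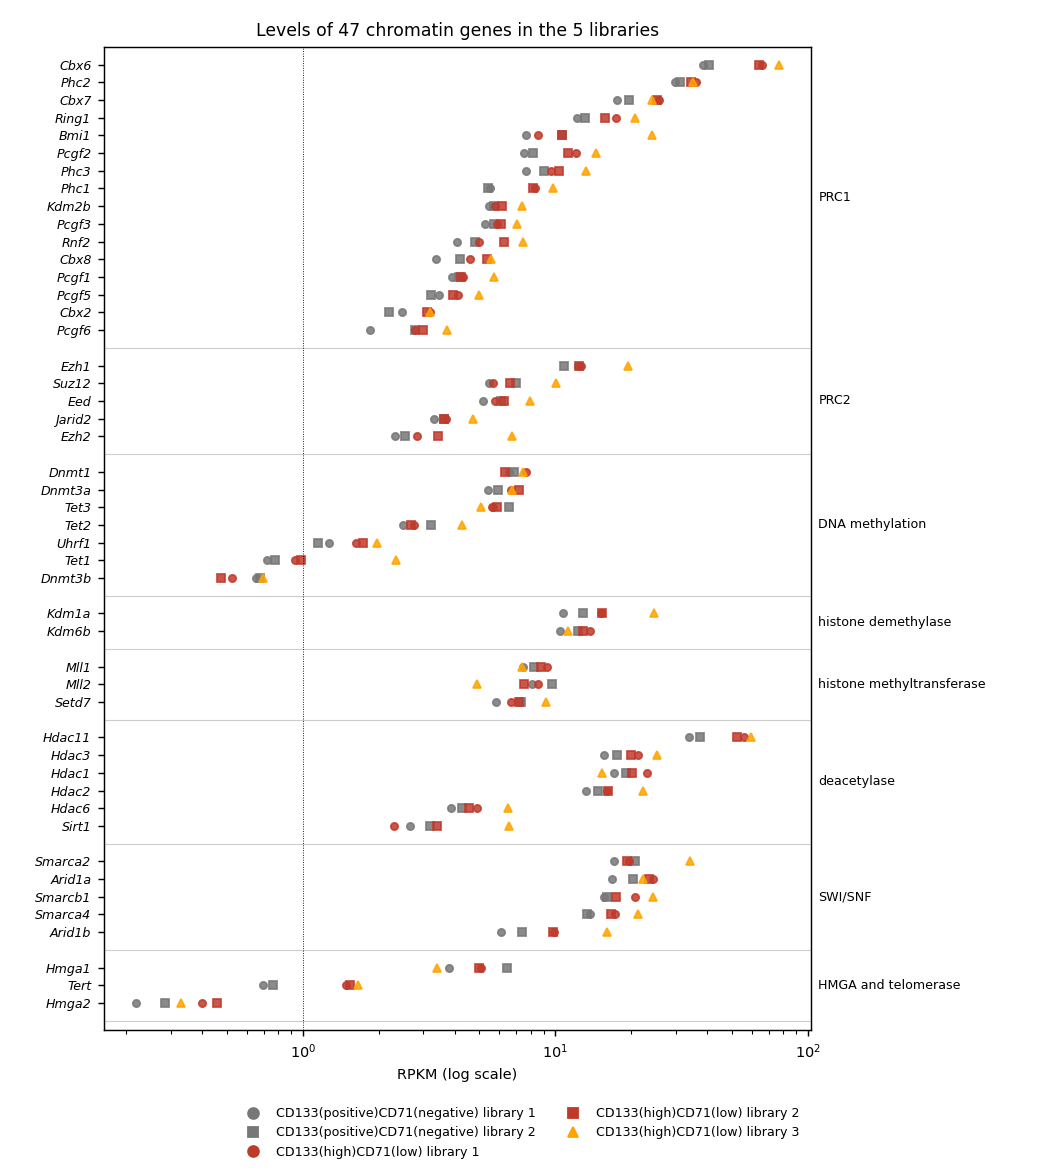
RPKM of each of the 47 genes in each library on a log axis, grouped by role and ordered by mean within a role, with the dotted line at 1 RPKM. Cbx6, Phc2 and Hdac11 lie furthest to the right and Hmga2 furthest to the left, and library 3 (triangles) is the highest library for most PRC1 and PRC2 genes.

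The upstream sequence of these genes was CpG-rich, a feature that the choice of the genes did not use. RefSeq promoter windows (GRCm38.p6) were found for 42 of the 47, and the 250 bases before the start farthest upstream were read. The ratio of observed to expected CpG had a median of 0.77 in the 42, against 0.38 over 27025 genes. Those genes were not limited to ones expressed here, and no comparison with the tested genes or the other chromatin genes was made. It was above 0.6 in 35 of the 42, against 34.5% of all genes. The GC box GGGCGG, searched on both strands, was present in 34 of the 42 (81.0%, against 33.0% of all genes), and the TATA box TATAAA in 0 (13.0% of all genes). The CCAAT box CCAAT was in 31.0% of them, against 34.5% of all genes. These counts describe letters in a window and not bound sites. The sequences below belong to genes that passed the test or have the highest mean in their role and whose window holds no annotated exon. They show how far CpG content varied, with CG dinucleotides in capitals. They lie at chr13:73626661-73626910 (Tert, plus strand), chr11:101226464-101226713 (Ezh1, minus strand), chr4:136602724-136602973 (Kdm1a, minus strand) and chr9:20959889-20960138 (Dnmt1, minus strand).
Tert: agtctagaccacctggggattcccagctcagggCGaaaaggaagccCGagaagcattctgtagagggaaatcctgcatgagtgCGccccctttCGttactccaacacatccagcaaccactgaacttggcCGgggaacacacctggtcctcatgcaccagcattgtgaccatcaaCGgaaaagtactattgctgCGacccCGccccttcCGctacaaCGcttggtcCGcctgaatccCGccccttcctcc
Ezh1: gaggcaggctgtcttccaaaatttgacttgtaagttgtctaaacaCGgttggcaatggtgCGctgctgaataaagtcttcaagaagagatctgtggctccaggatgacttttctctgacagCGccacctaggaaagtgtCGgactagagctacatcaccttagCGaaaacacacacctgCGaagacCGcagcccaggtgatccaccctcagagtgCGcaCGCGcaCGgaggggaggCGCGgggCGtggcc
Kdm1a: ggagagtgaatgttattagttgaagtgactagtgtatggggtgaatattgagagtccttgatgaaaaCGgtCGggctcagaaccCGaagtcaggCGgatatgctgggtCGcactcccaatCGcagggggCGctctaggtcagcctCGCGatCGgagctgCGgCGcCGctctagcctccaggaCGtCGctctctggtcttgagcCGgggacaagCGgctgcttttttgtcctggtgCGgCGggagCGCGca
Dnmt1: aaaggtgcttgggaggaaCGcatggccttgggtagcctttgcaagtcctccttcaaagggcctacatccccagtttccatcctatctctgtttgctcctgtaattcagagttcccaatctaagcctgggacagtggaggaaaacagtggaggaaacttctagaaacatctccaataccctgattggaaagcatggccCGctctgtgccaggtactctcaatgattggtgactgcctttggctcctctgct
The windows hold 12 (Tert), 14 (Ezh1), 21 (Kdm1a) and 2 (Dnmt1) CG dinucleotides. Only the farthest start of each gene was read, and whether these cells use it was not tested. Their observed to expected ratios were 0.62, 0.74, 0.99 and 0.13. Of these genes Tert passed the test and the others did not. The ratio was 0.69 for Cbx6, 0.61 for Phc1 and 0.65 for Hdac11, so the windows of all 4 called genes lay below the median of the 42. Annotated exons cover 250 of the 250 bases in the Cbx6 and Phc1 windows and 150 in that of Hdac11. Those ratios are therefore wholly or largely of exon sequence.

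Among the chromodomain subunits of PRC1, which bind methylated histone H3, Cbx6 rose. Cbx6 (ENSMUSG00000089715, chromosome 15, 79823896 to 79834688, minus strand, mm10) measured 38.5 and 40.6 RPKM in CD71(negative) cells against 65.8, 64.3 and 77.0 in CD133(high) cells. The groups did not overlap, and library 3 was the highest. Means were 39.6 ± 1.50 (SD, n = 2) and 69.0 ± 6.91 (SD, n = 3), 1.75 times as high, with a log2 difference of 0.78 (SE 0.13, limma adjusted p = 0.0187). This was 0.47 above the all-gene median. Under median-of-ratios scaling the difference was 0.45 (limma adjusted p = 0.0432), and without library 3 it was 0.70 (limma adjusted p = 9.66e-05). Leaving out any other library ended the call, with a limma adjusted p of up to 0.248, while the difference stayed between 0.70 and 0.83 over all 5 such fits. Exons of Cbx6 are shared on the same strand with Npcd, a read-through gene that joins it to its neighbour Nptxr, so reads could be split between them. Npcd was far lower, at 2.95, 1.40, 4.20 and 3.43 RPKM in the 4 numbered libraries and at 5.18e-05 in library 3.

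The other chromodomain genes had smaller differences. Cbx7 measured 17.5 and 19.5 RPKM against 25.8, 25.3 and 24.1, a log2 difference of 0.42 that did not pass (limma adjusted p = 0.0691) but did without library 3 (limma adjusted p = 0.00288). Cbx8 (3.38 and 4.20 against 4.60, 5.37 and 5.56) and Cbx2 (2.46 and 2.20 against 3.19, 3.11 and 3.19) were low throughout. Both were also called without library 3 (limma adjusted p = 0.0396 for Cbx8 and 0.0239 for Cbx2). That fit called 40.9% of all genes higher. With scaling as well, Cbx7 was called (limma adjusted p = 0.0413), while Cbx8 (limma adjusted p = 0.359) and Cbx2 (limma adjusted p = 0.295) were not. For each of these genes all CD133(high) libraries lay above both others. Their differences stood at 0.11 (Cbx7), 0.06 (Cbx8) and 0.01 (Cbx2) from the all-gene median. Cbx6 made up 62.2% and 61.1% of the summed RPKM of these Cbx genes in CD71(negative) and 66.2%, 65.6% and 70.1% in CD133(high). Cbx7 made up 28.3% and 29.3% against 26.0%, 25.8% and 21.9%.

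Of the Polyhomeotic genes, whose proteins polymerise PRC1 into larger assemblies, Phc1 rose and the more abundant Phc2 and Phc3 did not pass. Phc1 (ENSMUSG00000040669, chromosome 6, 122317731 to 122340561, minus strand) measured 5.53 and 5.39 RPKM against 8.32, 8.15 and 9.75. The CD71(negative) libraries lay close to each other and all 3 others were above them. Means were 5.46 ± 0.094 (n = 2) and 8.74 ± 0.88 (n = 3), 1.60 times as high, with a log2 difference of 0.59 (SE 0.13, limma adjusted p = 0.0424). That is 0.28 above the all-gene median. After median-of-ratios scaling the difference was 0.29 and was not called (limma adjusted p = 0.123), and in that scaling without library 3 it was 0.31 and was called (limma adjusted p = 0.0206). Phc2 measured 29.7 and 31.2 against 36.2, 34.4 and 35.1, a difference of 0.21 that lay 0.10 below the all-gene median, and it turned to -0.13 after scaling. Phc3 measured 7.68 and 9.05 against 9.63, 10.4 and 13.2.

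The PCGF proteins, each of which defines a variant of PRC1, include BMI1 (PCGF4) and its close relative PCGF2 (MEL18). None of their 6 genes passed over the 5 libraries. Pcgf2 came nearest, at 7.50 and 8.19 RPKM against 12.03, 11.2 and 14.5 (log2 difference 0.61, SE 0.15, limma adjusted p = 0.0534). It was called without library 3 with a difference of 0.51 (limma adjusted p = 0.00172), and also when those 4 libraries were scaled, at 0.30 (limma adjusted p = 0.0189). Bmi1, a gene known for stem cell self-renewal, measured 7.67 and 10.6 against 8.54, 10.6 and 24.2. Its groups overlapped, and its difference of 0.49 (SE 0.44, limma adjusted p = 0.399) was 0.07 without library 3. Pcgf1, Pcgf3 and Pcgf5 had every CD133(high) library above both others and Pcgf6 did not. Their differences were 0.19, 0.18, 0.30 and 0.34, at or under 0.03 above the all-gene median.

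The catalytic RING subunits and KDM2B completed the PRC1 set. Ring1 measured 12.2 and 13.1 RPKM against 17.3, 15.7 and 20.7 and Rnf2, which encodes RING1B, measured 4.07 and 4.79 against 5.004, 6.24 and 7.45. Neither passed (limma adjusted p = 0.095 for Ring1 and 0.168 for Rnf2), and Ring1 was called without library 3 (limma adjusted p = 0.00955). That fit called 40.9% of all genes higher, and with scaling as well Ring1 was not called (limma adjusted p = 0.193). Kdm2b, whose protein brings a PRC1 variant to CpG islands, measured 5.46 and 5.73 against 5.77, 6.13 and 7.36, a difference of 0.16 that lay 0.15 below the all-gene median. Over the 16 PRC1 genes 2 were higher, beside 6.25% of all genes, and 0 lower, with a median difference of 0.36. In 14 of them the groups did not overlap, always with CD133(high) above, beside 58.2% of all genes.

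In PRC2 none of the 5 genes passed, and their median difference was 0.20. Ezh1, one of the alternative methyltransferase subunits and the member with the highest level (chromosome 11, 101191115 to 101226463, minus strand), measured 12.3 and 10.8 RPKM against 12.6, 12.4 and 19.5. Only library 3 stood clear of the rest, and the log2 difference of 0.31 (SE 0.22, limma adjusted p = 0.322) matched the all-gene median. Ezh2, the other methyltransferase subunit and the one most tied to dividing cells, measured 2.31 and 2.53 against 2.84, 3.43 and 6.74. Its difference was 0.57 (SE 0.31, limma adjusted p = 0.22) with library 3, 0.27 without it (limma adjusted p = 0.0592) and 0.31 after scaling (limma adjusted p = 0.482). The core subunit genes Eed (5.18 and 6.12 against 5.78, 6.29 and 7.92) and Suz12 (5.47 and 7.01 against 5.66, 6.60 and 10.05) overlapped between the groups. Jarid2, which guides PRC2 to its targets, measured 3.30 and 3.61 against 3.68, 3.61 and 4.70. Eed, Suz12 and Jarid2 all lay 0.11 to 0.15 below the all-gene median.

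No gene of DNA methylation passed over the 5 libraries. Dnmt1, the maintenance methyltransferase gene (chromosome 9, 20907209 to 20959888, minus strand), measured 6.55 and 6.87 RPKM against 7.65, 6.31 and 7.42. The groups overlapped, and the log2 difference was 0.07 (SE 0.13, limma adjusted p = 0.666), 0.24 below the all-gene median. Uhrf1, whose protein brings DNMT1 to newly copied DNA, was much lower, at 1.27 and 1.15 against 1.63, 1.73 and 1.96. Every CD133(high) library was above both others for Uhrf1, which did not pass (limma adjusted p = 0.115), though it passed without library 3 (limma adjusted p = 0.0479) and under quantile normalization. The fit without library 3 called 40.9% of all genes higher, and with scaling as well Uhrf1 was not called (limma adjusted p = 0.335). The sums of the proliferation list followed the same order of groups, as given above. Of the genes for enzymes that place new methylation, Dnmt3a measured 5.41 and 5.92 against 6.68, 7.19 and 6.72. It too was called without library 3 (limma adjusted p = 0.0455), but not with scaling as well (limma adjusted p = 0.659). Dnmt3b stayed below 1 RPKM in every library, at 0.65 and 0.68 against 0.53, 0.47 and 0.70, and was not tested.

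The TET genes differed in level, with Tet3 the highest of them in every library. Tet3 measured 5.67 and 6.54 RPKM against 5.63, 5.87 and 5.10, a log2 difference of -0.12 (SE 0.13, limma adjusted p = 0.48), 0.43 below the all-gene median. In the 4 numbered libraries after scaling it had a difference of -0.27 and was called lower (limma adjusted p = 0.0383). Tet2 measured 2.49 and 3.21 against 2.76, 2.68 and 4.26. Tet1 measured 0.72 and 0.78 against 0.93, 0.99 and 2.34, and it passed the filter through library 3, without which its mean was under 1 RPKM. Neither Tet1 (limma adjusted p = 0.269) nor Tet2 (limma adjusted p = 0.639) was called.

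Histone demethylase and methyltransferase genes gave no call over the 5 libraries. Kdm1a, encoding the demethylase LSD1 (chromosome 4, 136550540 to 136602723, minus strand), measured 10.7 and 12.8 RPKM against 15.2, 15.3 and 24.7. All CD133(high) libraries were above both others and library 3 lay well above the rest. The log2 difference was 0.57 (SE 0.24, limma adjusted p = 0.149), and 0.35 without library 3 (limma adjusted p = 0.0156). The fit without library 3 called 40.9% of all genes higher, and with scaling as well Kdm1a was not called (limma adjusted p = 0.23). Kdm6b, whose protein removes the PRC2 mark, measured 10.4 and 12.3 against 13.7, 12.9 and 11.2, and the groups overlapped. Mll1 (chromosome 9, 44803355 to 44881296, minus strand) measured 7.43 and 8.24 against 9.30, 8.75 and 7.36, a difference of 0.10 (SE 0.14, limma adjusted p = 0.597). Mll2 had the lowest difference of all members, -0.33 (SE 0.24, limma adjusted p = 0.318), at 8.05 and 9.71 against 8.55, 7.55 and 4.89. Library 3 was the lowest for both MLL genes. In the 4 numbered libraries after scaling Mll2 had a difference of -0.33 and was called lower (limma adjusted p = 0.0294). Setd7 measured 5.81 and 7.35 against 6.70, 7.15 and 9.15.

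Of the deacetylase genes Hdac11 was the most abundant and rose. HDAC11 is the sole class IV deacetylase and is also known to remove fatty acyl groups from proteins. Hdac11 (ENSMUSG00000034245, chromosome 6, 91156665 to 91174692, plus strand) measured 33.9 and 37.4 RPKM against 55.7, 52.4 and 59.6, with no overlap between the groups. Means were 35.7 ± 2.46 (n = 2) and 55.9 ± 3.60 (n = 3), 1.57 times as high, with a log2 difference of 0.63 (SE 0.12, limma adjusted p = 0.0275), 0.32 above the all-gene median. After scaling it was 0.30 and not called (limma adjusted p = 0.172), and with scaling and without library 3 it was 0.36 and called (limma adjusted p = 0.00593). Annotated transcripts on the opposite strand (Gm14573 and Gm44002) overlap its exons, and the sources used here do not say whether counting used strand. Hdac11 made up 40.5% and 40.3% of the summed RPKM of the 5 Hdac genes in CD71(negative) and 46.1%, 46.2% and 46.2% in CD133(high).

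The class I genes Hdac1, Hdac2 and Hdac3 lay between 13.2 and 25.3 RPKM in all libraries. Hdac3 measured 15.6 and 17.5 against 21.2, 20.0 and 25.3, did not pass (limma adjusted p = 0.119) and was called without library 3 (limma adjusted p = 0.0205). That fit called 40.9% of all genes higher, and with scaling as well Hdac3 was not called (limma adjusted p = 0.429). Hdac2 measured 13.2 and 14.7 against 16.1, 16.2 and 22.3. Hdac1 measured 17.1 and 19.0 against 23.0, 20.2 and 15.3, so that library 3 was the lowest of all while the other CD133(high) libraries were the highest. The cytoplasmic tubulin deacetylase gene Hdac6 (3.87 and 4.27 against 4.91, 4.54 and 6.51) did not pass. Sirt1, a deacetylase dependent on NAD, measured 2.65 and 3.18 against 2.29, 3.41 and 6.57, with both the lowest and the highest value in CD133(high).

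No SWI/SNF gene passed over the 5 libraries. The ATPase genes are Smarca2 (BRM, chromosome 19, 26605050 to 26778322, plus strand) and Smarca4 (BRG1). Smarca2 measured 17.0 and 20.6 RPKM against 19.7, 19.2 and 34.1, with a difference equal to the all-gene median (0.31, SE 0.28, limma adjusted p = 0.399). Smarca4 measured 13.7 and 13.3 against 17.2, 16.6 and 21.3, did not pass (limma adjusted p = 0.113) and was called without library 3 (limma adjusted p = 0.014). That fit called 40.9% of all genes higher, and with scaling as well Smarca4 was not called (limma adjusted p = 0.438). The DNA-binding subunit gene Arid1a measured 16.7 and 20.3 against 24.3, 23.5 and 22.3. It too was called without library 3 (limma adjusted p = 0.0167), but not with scaling as well (limma adjusted p = 0.251). Its alternative Arid1b measured 6.08 and 7.40 against 9.89, 9.79 and 15.97, the second largest difference of the list (0.71, SE 0.24, limma adjusted p = 0.104), and was called without library 3 (0.49, limma adjusted p = 0.004). The core subunit gene Smarcb1 measured 15.6 and 15.95 against 20.7, 17.4 and 24.4.

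Tert rose at a low level, and the HMGA genes did not pass or were not tested. Tert, encoding the reverse transcriptase of telomerase (ENSMUSG00000021611, chromosome 13, 73626911 to 73649843, plus strand), measured 0.70 and 0.77 RPKM against 1.48, 1.53 and 1.65. The groups did not overlap and each was tight. Means were 0.73 ± 0.047 (n = 2) and 1.55 ± 0.088 (n = 3), 2.12 times as high, with a log2(RPKM + 1) difference of 0.56 (SE 0.11, limma adjusted p = 0.0286). Tert passed the filter on the mean only through the CD133(high) libraries, so it had to differ to be tested. After scaling the difference was 0.39 and not called (limma adjusted p = 0.0695), and with scaling and without library 3 it was 0.41 and called (limma adjusted p = 0.0182). Hmga1, encoding an architectural protein that bends DNA (chromosome 17, 27556497 to 27563674, plus strand), measured 3.80 and 6.45 against 5.08, 4.99 and 3.41. The lowest and the highest library belonged to different groups, and the log2 difference was -0.14 (SE 0.25, limma adjusted p = 0.665). Its fetal relative Hmga2 stayed below 1 RPKM, at 0.22 and 0.28 against 0.40, 0.46 and 0.33.

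Ratios of related genes within a library do not depend on how the library was scaled, although they do depend on the gene models, which may differ in library 3. For 18 pairs chosen after the values were seen, the groups did not overlap in 8, against 51.2% of all pairs of tested genes, so this share is near the background. The 8 include Dnmt3a over Dnmt3b, although Dnmt3b was not among the tested genes. No test was made, since an exact permutation test of 2 against 3 libraries has 0.2 as its smallest two-sided p. Cbx6 stood at 2.20 and 2.08 times Cbx7 in CD71(negative) and at 2.55, 2.55 and 3.20 times in CD133(high). The ratio of Phc1 to Phc2 was 0.19 and 0.17 against 0.23, 0.24 and 0.28, and that of Hdac11 to Hdac3 was 2.17 and 2.14 against 2.63, 2.62 and 2.35. The numerators of these ratios are called genes whose differences were larger than those of their relatives, so the direction of the ratios was set by that choice. Mll1 stood at 0.92 and 0.85 times Mll2 against 1.09, 1.16 and 1.50 times. The ratio of Arid1a to Arid1b was 2.75 and 2.75 against 2.45, 2.40 and 1.39. The ratio of Ezh2 to Ezh1 overlapped between the groups, at 0.19 and 0.23 against 0.23, 0.28 and 0.35, so Ezh1 was the more abundant methyltransferase RNA in every library.

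**Figure D3:**
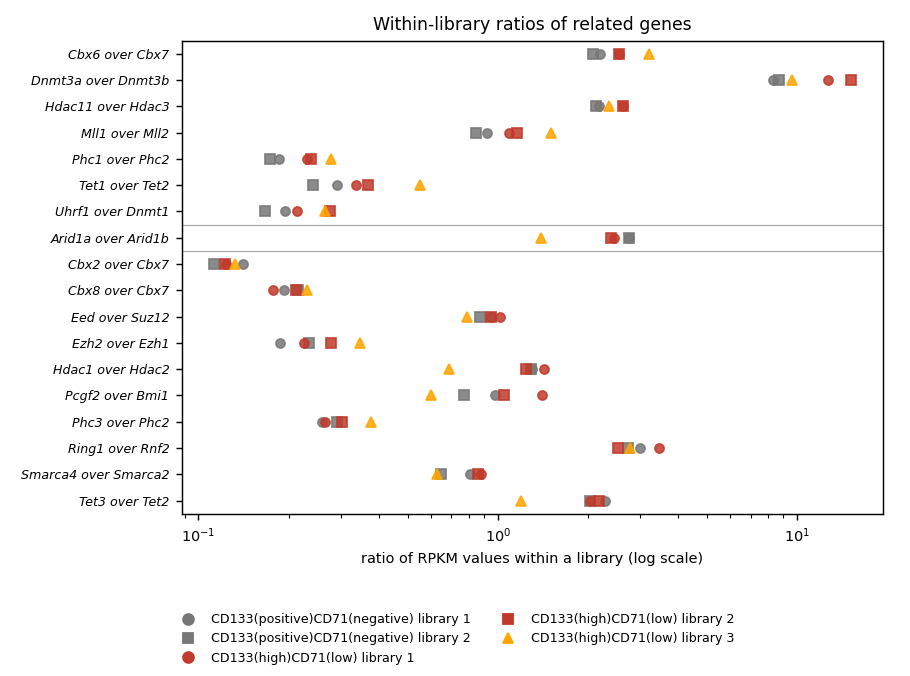
Ratio of 2 related genes within each library on a log axis for 18 pairs, with the horizontal lines dividing pairs in which all CD133(high) libraries lie above both others (7), below them (1) or overlap with them (10). The Cbx6 to Cbx7 ratio moves from 2.20 and 2.08 to 2.55, 2.55 and 3.20.

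Library 3 decided the size of several differences. On the log2(RPKM + 1) scale it lay a median of 0.29 above the mean of libraries 1 and 2 of its group for the 45 tested members, against 0.25 for all tested genes. Members ranged from -0.62 (Mll2) to 1.26 (Bmi1), and Sirt1 (0.99), Ezh2 (0.91), Smarca2 (0.78) and Tet1 (0.77) were also far above. For the 4 called genes the deviation was 0.24 (Cbx6), 0.22 (Phc1), 0.14 (Hdac11) and 0.08 (Tert), none above the all-gene median. The test that called them weighs the spread within groups, library 3 included, so small deviations were favoured by that choice. Without library 3 these 4 genes were still called, in a fit that called 40.9% of all genes higher. The differences of Bmi1 and Sirt1 in that fit were 0.07 and -0.03.

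**Figure D4:**
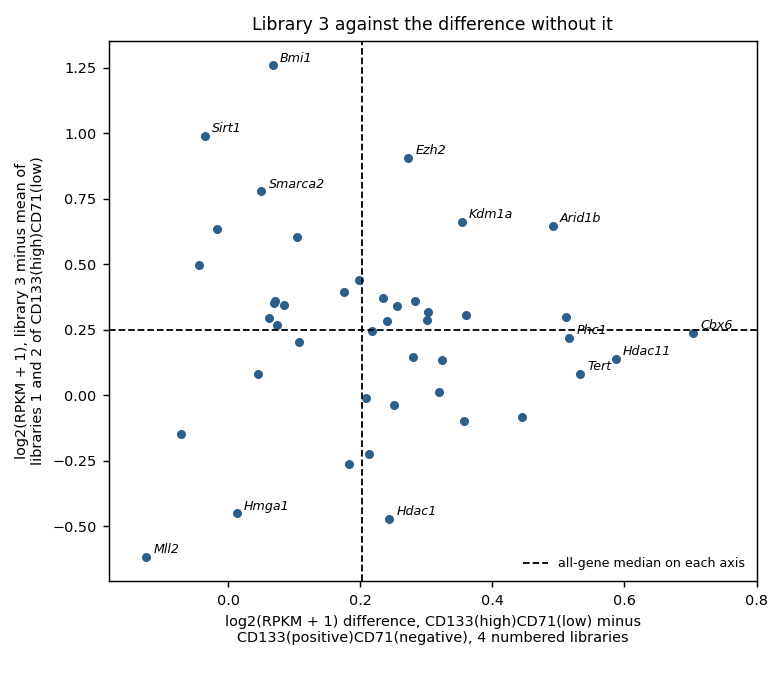
Each point is 1 of the 44 genes also tested without library 3, with its log2(RPKM + 1) difference between populations in the 4 numbered libraries on the x axis and library 3 minus the mean of CD133(high) libraries 1 and 2 on the y axis. Dashed lines mark the all-gene medians (0.20 and 0.25), Bmi1 and Sirt1 sit high near zero difference, and Cbx6, Hdac11, Tert and Phc1 sit to the right at or under the horizontal line.

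Other chromatin regulators, from a wider list, had few calls. Of 139 further names 137 were found and 127 tested, and 1 was higher and 1 lower in limma, beside the 6.25% and 7.22% of all genes given above. Their median difference was 0.38, against 0.31 for all genes. Every CD133(high) library lay above both others in 102 of the 127, beside 58.2% of all genes. In 3 of the 127 every one lay below, beside 12.0% of all genes. The class IIa deacetylase gene Hdac7, known for its role in endothelial cells and lymphocytes, fell from 25.2 and 25.3 RPKM to 16.2, 14.4 and 14.7 (log2 difference -0.71, SE 0.11, limma adjusted p = 0.0175). It remained called after scaling (-1.03, limma adjusted p = 0.0125). The sums of the endothelial and leukocyte lists moved the same way, and their part was not tested. Sirt3, encoding a mitochondrial deacetylase, was at the threshold, at 6.13 and 6.47 against 8.77, 9.51 and 10.04 (log2 difference 0.51, limma adjusted p = 0.0499), and was not called after scaling (limma adjusted p = 0.292). By class, 0 of 17 tested Polycomb, 0 of 9 DNA methylation, 0 of 13 demethylase, 0 of 29 methyltransferase, 0 of 9 acetyltransferase and 0 of 30 remodeler genes passed in either direction. Leaving out any library other than library 3 ended both calls. Without library 3, 65 of the 127 were higher and 3 lower, beside 40.9% and 12.2% of all genes, and with scaling as well 4 were higher and 8 lower, beside 12.3% and 17.9%.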

How the data were processed

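RNA of the 5 libraries was extracted with a column kit and sequenced on an Illumina instrument, per the labels' protocols. The authors deposited 1 value per gene and library, read here as RPKM from the values; the submitters' processing notes name Partek and the mm10 build, while for aligner, version, annotation and strandedness the state is: not given in the sources used here. The deposited RPKM tables hold 18618 symbols in the 4 numbered libraries and 22522 in library 3, and the 16992 shared symbols were joined. The shared symbols sum to 428456 of 491015 RPKM in library 3. In the CD71(negative) libraries they sum to 530406 of 532334 and 502649 of 504563. In CD133(high) libraries 1 and 2 they sum to 501335 of 503458 and 501448 of 503436. What this loss does to comparisons with library 3 was not tested. Genes with a mean RPKM of at least 1 were tested with limma 3.58.1 (R 4.3.3, mean-variance trend) on log2(RPKM + 1), group as the only term, with Benjamini-Hochberg adjustment over 11769 genes and a threshold of 0.05; the code was tested on simulated data. Depth is an estimate from the steps of low values, of which 53.8% to 59.9% came out within 0.05 reads of a whole number (10.0% by chance), too few to recover counts. The members, gene lists and tests were chosen with earlier results of these data known. Genes given in full are those past the threshold and, in each role, the one with the highest mean; of the other chromatin genes, up to 5 called in each direction. Gene positions come from GENCODE M21. Alternatives were another pseudocount (0.1), no filter or a minimum mean of 5, quantile normalization, scaling by median of ratios, leaving out 1 library at a time, and a replicate block. Tables were computed with Python 3.11.15, numpy 2.4.6 and pandas 2.3.3, and plots with matplotlib 3.10.9.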

Additional observations from a re-analysis of the deposited data

How the results depend on the processing

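With a pseudocount of 0.1 the numbers of all genes, members and other chromatin genes called in each direction stayed within 1.5 times their values, and marker lists were not run under the alternatives. A fit without 1 CD71(negative) library assumes that the remaining one varies like the CD133(high) libraries. The number of all genes higher, 735 in the report, was 220 under median-of-ratios scaling and 1438 in the 4 numbered libraries with that scaling, and 0 to 4785 when each library was left out. The number lower, 850, was 1729 without a filter, 315 at a minimum mean of 5, 2090 in the scaled numbered libraries, and 154 to 1425 with a library left out. Members higher, 4, were 1 after scaling, 7 in the scaled numbered libraries (with 2 lower) and 0 to 16 with a library left out. Other chromatin genes higher, 1, were 4 without a filter, 0 at a minimum mean of 5, 0 after scaling, 0 after quantile normalization, 4 in the scaled numbered libraries and 0 to 65 with a library left out; those lower, 1, were 2 without a filter, 2 after scaling, 8 in the scaled numbered libraries and 0 to 3 with a library left out. The median of the members relative to all genes, 0.01, was 0.13 without a filter, -0.0179 at a minimum mean of 5, -0.017 after quantile normalization and -0.0198 to 0.0289 with a library left out.

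Whether the replicate numbers pair the libraries is not known. Deviations of same-numbered libraries correlated at -0.024 across genes, so no shared shift was seen. That value cannot show whether such libraries came from the same sort or mice. A replicate block in the 4 numbered libraries gave 5275 genes higher and 1543 lower, which is 45.1% and 13.2% of all tested genes. In that fit 22 of 44 tested members were higher and 0 lower, and 78 of 127 other chromatin genes were higher and 3 lower.

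Differences that changed sign were not called in the report, and apart from scaling itself the cause was not tested. After median-of-ratios scaling these were Pcgf1 -0.0947, Pcgf3 -0.12, Phc2 -0.13, Kdm2b -0.13, Ezh1 -0.0148, Eed -0.0972, Suz12 -0.11, Jarid2 -0.11, Dnmt1 -0.23, Dnmt3a -0.0554, Tet2 -0.14, Kdm6b -0.18, Mll1 -0.21, Setd7 -0.11, Hdac1 -0.24, Smarca2 -0.0189 and Arid1a -0.0022. After quantile normalization they were Pcgf3 -0.024, Phc2 -0.0711, Kdm2b -0.0406, Suz12 -0.0222, Dnmt1 -0.15, Kdm6b -0.13, Mll1 -0.14, Setd7 -0.026 and Hdac1 -0.20. In the scaled numbered libraries they were Bmi1 -0.14, Pcgf1 -0.12, Pcgf3 -0.0901, Phc2 -0.0163, Kdm2b -0.12, Ezh1 -0.11, Eed -0.11, Suz12 -0.22, Jarid2 -0.12, Dnmt1 -0.16, Tet2 -0.21, Kdm6b -0.0014, Mll1 -0.024, Setd7 -0.13, Hdac2 -0.0199, Hdac6 -0.014, Sirt1 -0.21 and Smarca2 -0.17. With the replicate block they were Suz12 -0.0173, Tet2 -0.0435, Sirt1 -0.0347 and Hmga1 0.0131. With each library left out in turn, differences ran from -0.0173 to 0.35 for Suz12, -0.0435 to 0.26 for Tet2, -0.0372 to 0.24 for Hdac1, -0.0347 to 0.57 for Sirt1 and -0.45 to 0.18 for Hmga1. Low values such as those of Tert rest on few reads, and no counting error could be given from RPKM.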
